A study of Mus musculus with 6 samples.

Results

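The fibrillar collagens are the genes whose protein chains wind into long triple helices and pack side by side into the banded fibrils of connective tissue. The 10 genes described here, Col1a1, Col1a2, Col2a1, Col3a1, Col5a1, Col5a2, Col5a3, Col11a1, Col24a1 and Col27a1, were taken by symbol from the 53762 gene symbols of the count data; Col11a2 is not among them. All 10 were found, and 9 passed the filter on low counts, along with 15223 genes in all; Col24a1 did not pass. RNA sequencing was done on immortalized mouse embryonic fibroblasts (MEFs), collected 24 hours after seeding in high-glucose medium. There were 3 libraries from wild-type cells (WT) and 3 from cells titled PME-1 knockout (KO). The titles gave the groups, while the genotype fields of KO 2 and KO 3 name PME-2 and PME-3. Both groups were immortalized and grown in the same medium with serum. The gene for PME-1 is Ppme1, and its product takes a methyl group off the protein phosphatase PP2A. The sources used here do not give how the cells were immortalized or how the gene was removed, nor whether a group is 1 clone or its replicates are separate cultures. The tests therefore measure the spread between these libraries only, which may be technical.

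A fibroblast makes fibrillar collagen as a procollagen, a trimer of chains with propeptides at both ends. In the endoplasmic reticulum the chains are hydroxylated and folded with the help of dedicated enzymes and chaperones, the propeptides are removed by proteases outside the cell, and the trimers assemble and are cross-linked. Type I collagen (Col1a1 and Col1a2 chains) is the main fibril of skin, tendon and bone, type III (Col3a1) joins it in extensible tissue and in wounds, and type II (Col2a1) is the cartilage fibril. Types V (Col5a1, Col5a2 and Col5a3) and XI (Col11a1) are minor chains that nucleate fibrils and limit their width. Types XXIV and XXVII (Col24a1 and Col27a1) form a separate branch of the family, found mainly in developing bone and cartilage.

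Total counts ranged from 34450993 to 44116310 per library, at which 3 counts, the limit that a count of 0 allows, are 0.0689 to 0.0881 CPM (counts scaled to the size of the library); this limit covers counting error only. Ppme1 was at 2828, 3492 and 3774 counts in WT libraries 1 to 3 and at 705, 636 and 644 in KO libraries 1 to 3, a 4.72-fold lower level (edgeR adjusted p = 0.000563). WT 1 and KO 1 stood apart from the other libraries of their groups: the chi-square per degree of freedom over genes was 12.7 between WT 2 and WT 3 and 13.1 between KO 2 and KO 3, against 115 to 137 for pairs within a group that hold WT 1 or KO 1. Xist, the RNA of the inactive X chromosome, had 16003 to 18859 counts in WT and 4 to 12 in KO libraries, and Y-linked Ddx3y had 0 counts in every WT library and 1988 to 3061 in KO, so the sex of the cells and the genotype cannot be told apart in any comparison here. In bulk RNA, fewer cells of a type and less RNA per cell cannot be told apart either.

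Promoters are shown for the 5 members above 10 CPM in every library of at least 1 group whose start is in the RefSeq table used, because their transcripts differ in how they moved. Of the 10 members 7 matched that table (GRCm38.p6); Col1a1, Col2a1 and Col5a2 did not. Each line gives the 150 bases before the RefSeq start, on the gene's strand. The RefSeq start is that of GENCODE M21 for 4 of the 5; that of Col1a2 lies 804 bases inside the GENCODE gene, whose first transcript starts further upstream. Capitals mark CCAAT, known as the binding site of NF-Y, GGGCGG, known as the GC box of Sp1, and TATAAA, on either strand.
Col1a2: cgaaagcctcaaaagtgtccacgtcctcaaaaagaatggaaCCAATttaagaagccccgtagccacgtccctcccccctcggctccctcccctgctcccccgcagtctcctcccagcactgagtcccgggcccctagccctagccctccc
Col3a1: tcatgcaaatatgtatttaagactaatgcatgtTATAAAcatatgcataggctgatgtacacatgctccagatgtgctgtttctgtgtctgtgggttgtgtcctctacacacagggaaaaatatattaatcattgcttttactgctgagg
Col5a1: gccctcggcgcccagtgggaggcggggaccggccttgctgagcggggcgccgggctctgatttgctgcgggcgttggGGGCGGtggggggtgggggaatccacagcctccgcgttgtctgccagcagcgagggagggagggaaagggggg
Col5a3: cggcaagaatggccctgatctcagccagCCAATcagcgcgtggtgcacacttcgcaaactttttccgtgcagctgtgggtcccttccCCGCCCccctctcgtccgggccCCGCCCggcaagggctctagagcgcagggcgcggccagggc
Col11a1: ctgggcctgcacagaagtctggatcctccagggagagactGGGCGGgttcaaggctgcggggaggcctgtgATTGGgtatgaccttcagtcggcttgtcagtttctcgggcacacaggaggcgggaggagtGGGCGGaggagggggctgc
The windows are chr6:4505468-4505617 (plus strand) for Col1a2, chr1:45311388-45311537 (plus) for Col3a1, chr2:27886275-27886424 (plus) for Col5a1, chr9:20815068-20815217 (minus) for Col5a3 and chr3:114030390-114030539 (plus) for Col11a1. A CCAAT begins 109 bases before the RefSeq start of Col1a2 and 122 before that of Col5a3. Its reverse complement (ATTGG) begins 79 before that of Col11a1. These are the 3 of the 7 matched members with CCAAT, which 24.5% of 32851 promoter windows of the same length hold. GGGCGG is in 4 of the 7 (28.6% of all windows), and TATAAA in Col3a1 alone (7.57% of all windows). The motifs do not overlap each other in these windows. A match describes the letters and says nothing about binding.

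Of the 9 tested fibrillar collagens, Col11a1, Col5a3, Col1a1 and Col5a1 fell in KO cells and none rose (edgeR quasi-likelihood test, adjusted p under 0.05 over 15223 genes). Among all genes tested, 3.86% fell and 3.55% rose. An unadjusted p under 0.05 was reached by 6 members that were lower and 0 that were higher, beside 11.5% and 10.7% of all genes. DESeq2 called 6 lower and 0 higher, beside 7.97% and 7.86%, and limma-voom 4 lower and 0 higher, beside 4.02% and 3.72%. The median log2 fold change was -0.76 for the 9 members and 0.01 for all tested genes. In 6 members every KO library lay below every WT library in CPM with TMM scaling factors, which was so for 15.4% of all tested genes. For Col1a2 and Col27a1 this rests on the factors. As a share of all counts of the library, KO 1 lay above WT 1 for both. The fall ranged from 1.69-fold for Col5a1 to 7.02-fold for Col11a1. The 4 calls became 6 without WT 1, with Col1a2 and Col27a1 added, and only Col11a1 was called without WT 2, WT 3, KO 2 or KO 3. Without WT 1 and KO 1 together, 7 of 9 members were called lower, against 24.6% of all genes tested, and in that setting the genotype cannot be told apart from whatever else sets the close pair WT 2 and WT 3 apart from the close pair KO 2 and KO 3.

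**Figure D1:**
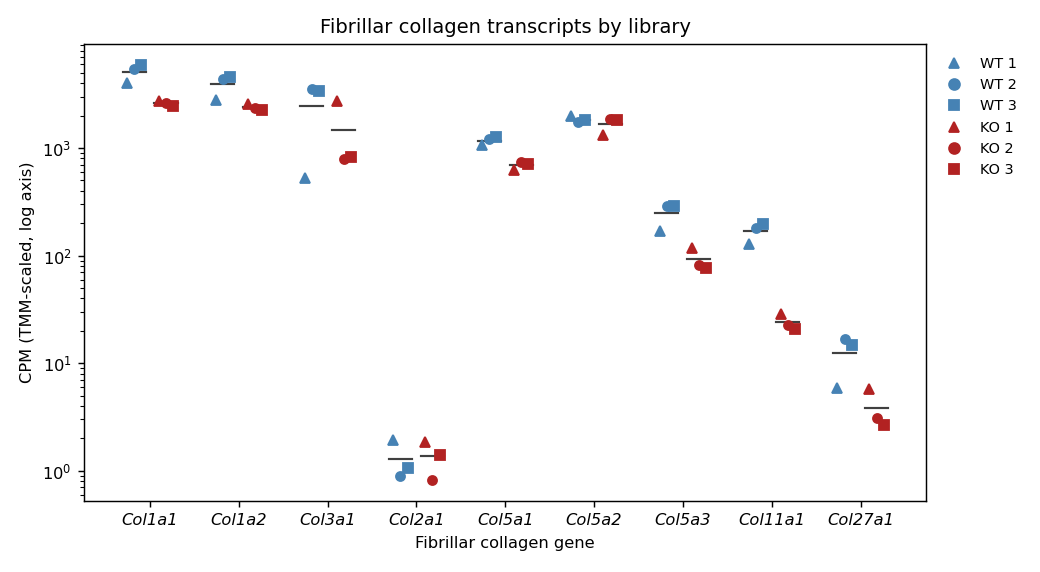
Level of each tested fibrillar collagen in each library, in CPM on a log axis, with WT in blue and KO in red, marker shapes for the library number and a bar at each group mean (n = 3). Col11a1 separates the groups most widely, and for Col3a1 library WT 1 (525 CPM) lies below KO 1 (2762 CPM).

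Col1a1 and Col1a2 encode the chains of type I collagen, of which 1 trimer holds more of the first than of the second. In CPM, Col1a1 (ENSMUSG00000001506.10, chr11:94936224-94953042 on the plus strand in GENCODE M21 on GRCm38) was the highest member in every library except KO 1, where Col3a1 was higher (2762 CPM). Col1a1 was at 4001, 5422 and 5947 CPM in WT libraries 1 to 3 and 2726, 2617 and 2450 CPM in KO libraries 1 to 3. Every KO library was lower than every WT library, and the KO libraries were closer together than the WT libraries. The mean went from 5123 ± 1007 to 2598 ± 139 CPM (SD, n = 3 each), a 1.97-fold fall (log2 fold change -0.98, SE 0.17, edgeR adjusted p = 0.0209). The call was lost when WT 2, WT 3, KO 2 or KO 3 was left out (adjusted p = 0.0917 to 0.104).

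Col1a2 (ENSMUSG00000029661.16, chr6:4504814-4541544, plus strand) was at 2774, 4372 and 4545 CPM in WT and 2566, 2377 and 2260 CPM in KO. The groups did not overlap on this scale, but WT 1 lay closer to the KO libraries than to WT 2 and WT 3. As a share of all counts of the library, WT 1 lay below KO 1. The log2 fold change of -0.70 (SE 0.20) did not pass in edgeR (adjusted p = 0.0986), and did in DESeq2 (adjusted p = 0.0147) and in edgeR without WT 1 (0.0132).

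Within a library, the ratio of 2 chains does not depend on scaling. Counts per length of the longest coding transcript gave 1.30, 1.12 and 1.18 Col1a1 per Col1a2 in WT and 0.958, 0.993 and 0.978 in KO. With these lengths the ratio was above 1 in each WT library and below 1 in each KO library, and other lengths would move it relative to 1. The mean difference was -0.29 on the log2 scale, which does not depend on the lengths chosen. The exact two-sided permutation test gave p = 0.1, the smallest that 3 against 3 libraries allow, and 0.167 adjusted over the 5 chain ratios examined.

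Col3a1 (ENSMUSG00000026043.18, chr1:45311538-45349706, plus strand), the chain of type III collagen, varied more within the groups than between them. Its level was 525, 3539 and 3375 CPM in WT and 2762, 797 and 824 CPM in KO. WT 1 was thus the lowest of all 6 libraries, KO 1 was near WT 2 and WT 3, and the groups overlapped. Between the highest and the lowest library of a group the level differed 6.74-fold in WT and 3.46-fold in KO. The log2 fold change was -0.76 (SE 0.78, edgeR adjusted p = 0.628), the largest SE of the tested members. In the libraries numbered 1, KO was 5.26-fold above WT, and the mean of WT 2 and WT 3 was 4.27-fold above that of KO 2 and KO 3. Leaving out both libraries numbered 1 turned the result into a called fall (log2 fold change -2.09, SE 0.05, adjusted p = 7.44e-11), while leaving out WT 1 alone gave -1.23 (0.251) and KO 1 alone -1.62 (0.241). The cause of the difference of WT 1 and KO 1 was not tested.

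Relative to Col1a1 per length, Col3a1 was at 14.0, 69.6 and 60.5% in WT and 108, 32.5 and 35.8% in KO. KO 1 was the only library in which Col3a1 was above Col1a1 per length. The groups overlapped, with a mean log2 difference of 0.36 (exact permutation p = 0.8, adjusted 0.8) that turned to -0.37 without WT 1, to -0.19 without KO 1 and to -0.93 without both.

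Col2a1 (ENSMUSG00000022483.17, chr15:97975602-98004695, minus strand), the cartilage collagen, was low in every library, with 69, 39 and 46 counts in WT and 72, 35 and 48 in KO. Its level was 1.91, 0.901 and 1.06 CPM in WT and 1.86, 0.821 and 1.41 CPM in KO, so the groups overlapped and the libraries numbered 1 were the highest of each. The log2 fold change was 0.08 (SE 0.48, edgeR adjusted p = 0.945), and its sign turned when WT 2, WT 3 or KO 1 was left out. Of 12 chondrocyte markers, 7 were under 1 CPM in every library. Col9a1, Matn1, Cnmd and Snorc had 0 counts in each, which allows up to 3 counts a library, while Sox9 was at 24.1 to 56.9 CPM in the 6 libraries, Col10a1 at 5.13 to 10.2 CPM in WT and Acan at 5.33 to 10.95 CPM in KO.

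**Figure D2:**
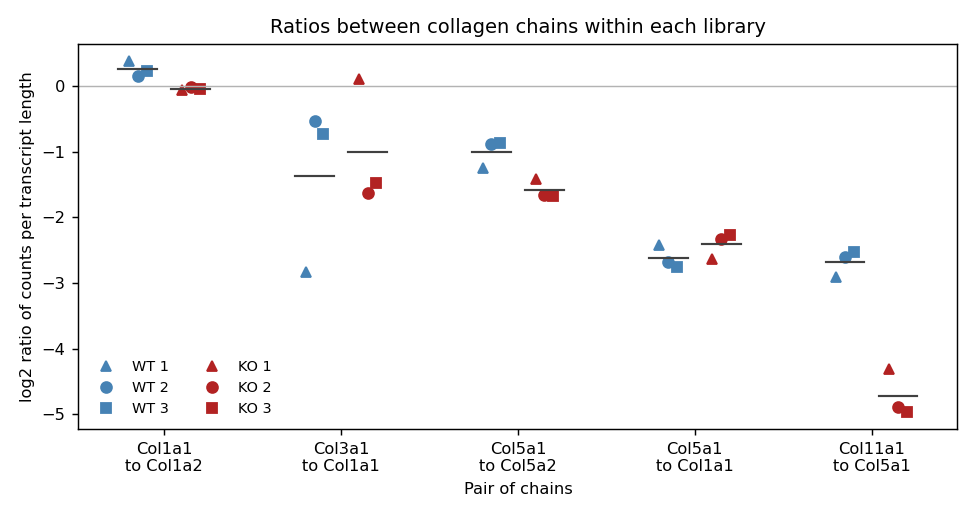
Log2 ratio of counts per transcript length between 2 chains of the same library, for 5 pairs, with WT in blue, KO in red, marker shapes for the library number and a bar at each group mean (n = 3). The groups separate for Col1a1 to Col1a2, Col5a1 to Col5a2 and Col11a1 to Col5a1, and overlap for Col3a1 to Col1a1.

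The minor chains of types V and XI held both the deepest fall and a member with hardly any difference. Col11a1 (ENSMUSG00000027966.20, chr3:114030540-114220718, plus strand), the nucleating chain of type XI collagen, was at 129, 180 and 199 CPM in WT and 28.6, 22.7 and 21.0 CPM in KO. The lowest WT library was 4.51-fold above the highest KO library, which were WT 1 and KO 1. The mean went from 169 ± 35.9 to 24.1 ± 4.0 CPM (SD, n = 3 each), a log2 fold change of -2.81 (SE 0.21, edgeR adjusted p = 0.00134). The call held in each fit that left out 1 library (log2 fold change -2.96 to -2.68, adjusted p = 0.00157 to 0.0138).

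Col5a1 (ENSMUSG00000026837.15, chr2:27886425-28039514, plus strand), part of nearly every type V trimer, was at 1061, 1204 and 1254 CPM in WT and 625, 743 and 718 CPM in KO. It was lower in each KO library than in each WT library, and here KO 1 was the lowest. The mean went from 1173 ± 99.97 to 695 ± 62.4 CPM, a 1.69-fold fall (log2 fold change -0.75, SE 0.13, adjusted p = 0.0180), and the call was lost without WT 2, WT 3, KO 2 or KO 3 (0.0658 to 0.0978). The transcripts 2810430I11Rik and Gm13372 overlap it on the opposite strand, with 21 to 91 counts per library against at least 24142 for Col5a1; whether the counting used strand is not stated in these sources.

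Col5a2 (ENSMUSG00000026042.16, chr1:45374321-45503282, minus strand), its usual partner chain, was at 1973, 1744 and 1807 CPM in WT and 1315, 1848 and 1809 CPM in KO. KO 2 and KO 3 lay within the range of the WT libraries and KO 1 lay below it. The log2 fold change was -0.15 (SE 0.16, adjusted p = 0.644), and 0.04 (SE 0.04) without WT 1 and KO 1. Col5a2 and Col3a1 are neighbours on chromosome 1 that face each other with their 3' ends, 24.6 kb apart. KO 1 was the lowest library for Col5a2 and the third highest for Col3a1, and WT 1 was the highest for Col5a2 and the lowest for Col3a1.

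Counts per length gave 0.424, 0.544 and 0.547 Col5a1 per Col5a2 in WT and 0.374, 0.317 and 0.313 in KO. The 2 groups did not overlap, and the mean difference was -0.59 on the log2 scale (exact permutation p = 0.1, adjusted 0.167). Relative to Col1a1, Col5a1 was at 18.7, 15.7 and 14.9% in WT and 16.2, 20.0 and 20.7% in KO (0.21 on the log2 scale, exact permutation p = 0.2, adjusted 0.25), so these groups overlapped.

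Col5a3 (ENSMUSG00000004098.7, chr9:20770050-20815067, minus strand), the least widespread type V chain, was at 170, 290 and 288 CPM in WT and 119, 82.7 and 76.5 CPM in KO. The groups did not overlap, with WT 1 and KO 1 nearest to each other. The mean went from 250 ± 68.5 to 92.7 ± 23.0 CPM, a 2.69-fold fall (log2 fold change -1.43, SE 0.26, adjusted p = 0.0251), and the call was lost without WT 2, WT 3, KO 2 or KO 3 (0.0953 to 0.115). Col11a1 relative to Col5a1 per length was at 13.4, 16.4 and 17.4% in WT and 5.03, 3.36 and 3.21% in KO. In every KO library this share was under that of each WT library, a mean log2 difference of -2.05 (exact permutation p = 0.1, adjusted 0.167).

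**Figure D3:**
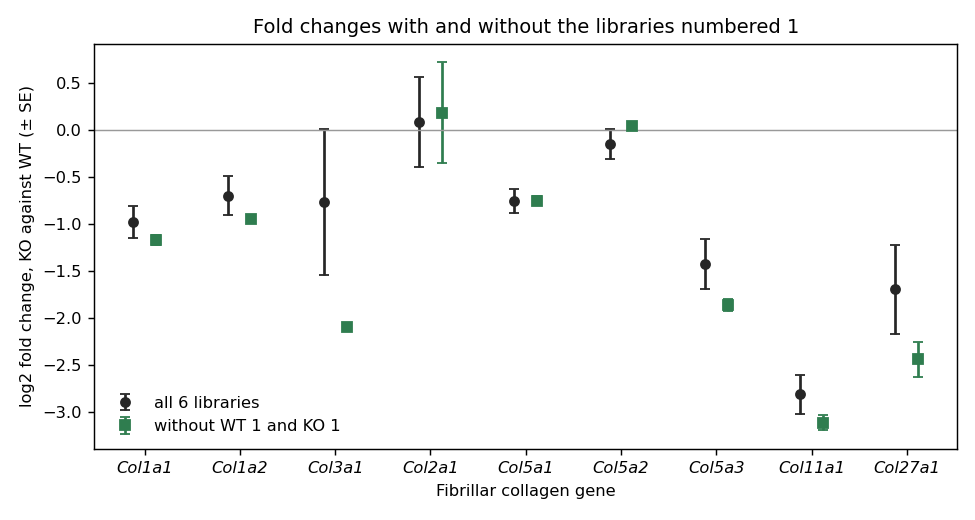
Log2 fold change of each tested member in KO against WT with its SE, from all 6 libraries (black circles) and without WT 1 and KO 1 (green squares). Col3a1 goes from -0.76 with an SE of 0.78 to -2.09 with an SE of 0.05, and Col5a2 stays near 0.

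Col27a1 (ENSMUSG00000045672.15, chr4:63214004-63334991, plus strand), of the separate branch of the family, was at 5.83, 16.8 and 14.6 CPM in WT and 5.72, 3.12 and 2.67 CPM in KO. WT 1 and KO 1 were nearly level, at 210 and 221 counts, and the other 2 libraries of each group lay far apart. The log2 fold change of -1.70 (SE 0.47) did not pass in edgeR (adjusted p = 0.0873), and did in DESeq2 (0.00539) and in edgeR without WT 1 (0.0314). Col24a1 (ENSMUSG00000028197.4, chr3:145292472-145552011, plus strand) had 1, 7 and 0 counts in WT and 0 in each KO library. WT 2 (0.162 CPM) was above the limit that a count of 0 allows in it (0.0693 CPM) and the other 5 libraries were under theirs. The gene was not tested, and no fold is given.

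Levels can be set side by side between genes only per transcript length. Per kilobase, the order in WT was Col1a1 (864 ± 170 CPM per kb, SD, n = 3), Col1a2 (729 ± 183), Col3a1 (446 ± 305), Col5a2 (278 ± 17.8), Col5a1 (140 ± 11.9), Col5a3 (40.8 ± 11.2), Col11a1 (22.1 ± 4.69), Col27a1 (1.63 ± 0.765) and Col2a1 (0.253 ± 0.107). Neighbours in this order overlapped at 1 SD down to Col5a2, and from Col5a2 on they did not. In KO Col1a2 (449 ± 28.9) and Col1a1 (438 ± 23.5) were within 1 SD of each other, followed by Col3a1 (263 ± 202) and Col5a2 (250 ± 44.8). Of the summed level of the 10 members per length, Col3a1 made up 5.37, 22.3 and 20.5% in WT and 28.6, 10.1 and 10.9% in KO. The share of Col11a1 was 0.826 to 0.959% in WT and 0.202 to 0.216% in KO. Col5a2 took 9.23 to 16.9% in WT and 11.5 to 20.1% in KO, with WT 1 above and KO 1 below the other libraries of their groups.

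**Figure D4:**
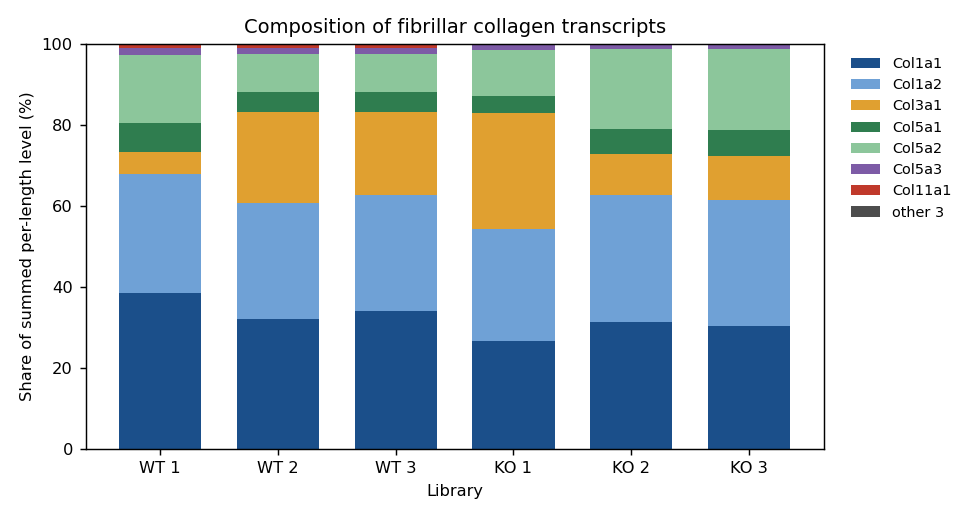
Share of each member in the summed per-length level of the 10 fibrillar collagens, in percent, as 1 stacked bar per library. The Col3a1 segment (orange) is the narrowest in WT 1 (5.37%) and the widest in KO 1 (28.6%).

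The 10 members together took 1.01, 1.68 and 1.72% of all counts in WT and 1.11, 0.842 and 0.807% in KO. WT 1 was below KO 1, so the groups overlapped on this scale, which uses no TMM factors. In CPM with TMM factors the sum of the members did not overlap, with WT 1 at 10641 and KO 1 at 10149. The mean was 1.47 ± 0.402% in WT and 0.918 ± 0.163% in KO, a difference of -0.551 percentage points (exact permutation p = 0.2; the smallest possible is 0.1).

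Likeness of profile was measured as the root mean square difference between log2 CPM over the 6 libraries, each gene centred on its own mean, among genes that averaged 5 CPM or more. The profiles most like that of Col1a1 were those of Scd1 (a desaturase of fatty acid synthesis, 0.06), Gab1 (a docking protein of receptor kinases, 0.06) and Jup (plakoglobin of cell junctions, 0.07). Among the members, Col1a2 (0.16) and Col5a1 (0.18) were nearest to Col1a1 and Col3a1 (0.94) was farthest. Of the 10071 genes compared with Col1a1, these ranked 100, 135 and 9428, so many other genes lay nearer. Nearest to Col11a1 were Pde10a (a phosphodiesterase, 0.09), Shox2 (a homeobox factor of the limb, 0.11) and Vcan (the proteoglycan versican, 0.15). Nearest to Col3a1 were Fcgrt (the neonatal Fc receptor, 0.18), Mturn (0.20) and Mme (neprilysin, a membrane protease, 0.21). Mme was at 36.8, 216 and 233 CPM in WT and 267, 66.8 and 60.1 CPM in KO. In Mme as in Col3a1, WT 1 was the lowest library, and KO 1 lay with WT 2 and WT 3.

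Genes that make, process and bind fibrillar collagen were described as 7 lists, which hold 104 tested genes together, of which 19 fell and Tgfbr2 alone rose (edgeR, adjusted p under 0.05), or 18.3% and 0.962%, beside 3.86% and 3.55% of all tested genes. Their median log2 fold changes ranged from -0.97 to -0.15, against 0.01 for all genes. At an unadjusted p under 0.05, 38 were lower and 4 higher, beside 11.5% and 10.7% of all genes. DESeq2 called 32 lower and 2 higher, beside 7.97% and 7.86%, and limma-voom 20 lower and 2 higher, beside 4.02% and 3.72%. Without WT 1 and KO 1, 61 fell and 12 of 104 rose, beside 24.6% and 23.3% of all genes in that fit. These lists, like the members, were chosen with earlier results of these data known, so their shares are descriptions only.

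Of 22 tested genes for hydroxylation, glycosylation and folding of procollagen, 5 fell (22.7%, beside 3.86% of all tested genes; median log2 fold change -0.35). Serpinh1, the collagen chaperone HSP47, was at 1553, 1702 and 1625 CPM in WT and 1070, 1055 and 1059 CPM in KO. The KO libraries were close together and below every WT library, a 1.53-fold fall (adjusted p = 0.0185). Fkbp10, a prolyl isomerase that acts on procollagen, fell 1.45-fold (0.0220) and Ppib, cyclophilin B, fell 1.77-fold (0.0264). P4ha3, a catalytic subunit of prolyl 4-hydroxylase, fell 4.84-fold (0.0486), and 8.23-fold without KO 1. Each of these 4 calls was lost without WT 2, WT 3, KO 2 or KO 3 (adjusted p = 0.0915 to 0.173), that of P4ha3 also without WT 1 (0.0538), with other scaling factors (0.0520 to 0.0751) and with genes under a mean of 5 CPM left out (0.0617), and that of Ppib with upper-quartile factors (0.0505) or library sizes alone (0.0640).

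Of 11 tested genes for cleavage and cross-linking, 4 fell (36.4%, beside 3.86% of all genes; median -0.83). Loxl1, a lysyl oxidase-like enzyme, was at 553, 643 and 610 CPM in WT and 324, 323 and 330 CPM in KO, a 1.85-fold fall (adjusted p = 0.00569). Loxl3, of the same family, fell 2.43-fold (0.0107). Pcolce, which speeds the removal of the C-propeptide, fell 1.77-fold (0.0205) and Adamts2, which removes the N-propeptide, fell 4.08-fold (0.0447) from a low level of 3.19 CPM. The call of Loxl1 held in each fit without 1 library. That of Loxl3 was lost without KO 2 (0.0511) or KO 3 (0.0711), and those of Pcolce and Adamts2 without WT 2, WT 3, KO 2 or KO 3 (0.0952 to 0.166). Adamts2 was also not called without WT 1 (0.0621), with upper-quartile factors (0.0614), library sizes alone (0.0694) or no filter (0.0521).

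Of 18 tested matrix partners of fibrils, 5 fell (27.8%, beside 3.86% of all genes; median -0.97), among them Col6a3 and Col6a1, chains of the microfibrils of type VI collagen. Col6a3 was at 748, 781 and 879 CPM in WT and 257, 247 and 203 CPM in KO, a 3.41-fold fall (adjusted p = 0.00148). Col6a1 fell 2.47-fold (0.0449). Aspn and Fmod, proteoglycans that bind collagen, fell 17.6-fold (0.0264) and 7.73-fold (0.0431); Aspn fell 35.8-fold without KO 1. The call of Col6a3 held in each fit without 1 library. Aspn was not called without WT 2, WT 3, KO 2 or KO 3 (0.0884 to 0.109) or by limma-voom (0.0609). Fmod and Col6a1 kept their calls only without WT 1 (0.0524 to 0.170 otherwise), Fmod being 13.4-fold lower without KO 2, and Col6a1 was not called with upper-quartile factors (0.0634), library sizes alone (0.0722) or a mean of at least 5 CPM (0.0557).

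Of 8 tested collagen receptors only Ddr1, a receptor tyrosine kinase, fell (1.71-fold, adjusted p = 0.00772; median of the list -0.42), beside 3.86% of all genes. Of 11 tested genes of collagen degradation, 3 fell (27.3%, beside the same 3.86%; median -0.15), namely the gelatinase Mmp2 (5.71-fold, 0.00417), the membrane protease Mmp16 (1.83-fold, 0.0289) and the inhibitor Timp3 (1.48-fold, 0.0451). Of 21 tested transcription factors known at collagen genes only Smad3, which carries the TGF-beta signal, fell (1.57-fold, 0.0150; median -0.23); this share of 4.76% is near the 3.86% of all genes and is no result about the list. Of 13 tested TGF-beta genes Tgfbr2, a receptor of TGF-beta, rose from 123, 189 and 189 CPM in WT to 354, 346 and 338 CPM in KO, 2.08-fold (0.0205; median of the list -0.18), 1 riser of 13 beside 3.55% of all genes. The call of Mmp2 held in each fit without 1 library, and that of Ddr1 was lost without WT 3 (0.0531) or KO 3 (0.0558). Mmp16, Smad3 and Tgfbr2 were not called without WT 2, WT 3, KO 2 or KO 3 (0.0566 to 0.138), nor Mmp16 with library sizes alone (0.0561), and Timp3 was not called when any 1 library was left out (0.0592 to 0.169) or with upper-quartile factors (0.0507).

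**Figure D5:**
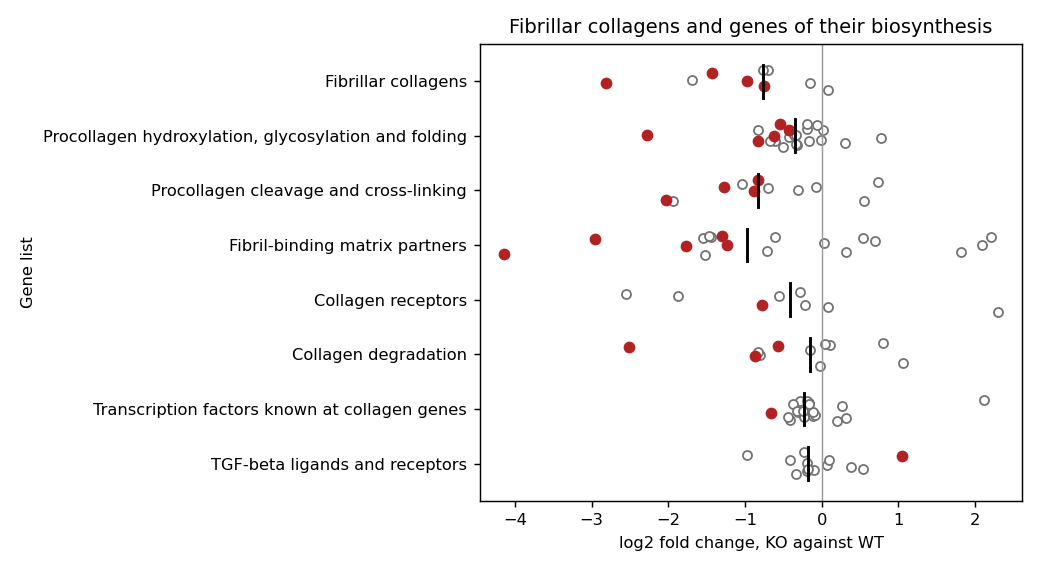
Log2 fold change in KO against WT of each tested gene of the fibrillar collagens and of the 7 lists around them; filled red points have an edgeR adjusted p under 0.05 and the black bar is the list median. Filled points lie below 0 in every list except that of TGF-beta, where Tgfbr2 lies above.

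Markers of fibroblasts and of other cell types were counted in the same libraries; their calls stand beside 3.86% of all tested genes that fell and 3.55% that rose. Of 9 tested fibroblast markers Cd34 rose and S100a4 and Pdgfrb fell. The summed level of the list was 8954 to 9938 CPM in WT and 8553 to 9231 CPM in KO, most of it Vim and Fn1. Thy1 reached at most 9.36 CPM, Pdgfra 14.2 CPM and Fap 0.233 CPM. Thy1 and Pdgfra were not called (log2 fold change 1.49 and -1.21). Of 6 tested chondrocyte markers Acan rose and Col10a1 fell, with a summed level of 31.1 to 65.0 CPM in WT and 37.4 to 55.4 CPM in KO. Sox9, which is known to drive Col2a1 and Col11a1 in cartilage, was at 24.1, 52.8 and 56.9 CPM in WT and 29.4, 43.0 and 41.6 CPM in KO. Of 5 tested smooth muscle markers Acta2 alone was called, and it fell. The summed level was 407 to 1157 CPM in WT, highest in WT 1, and 178 to 403 CPM in KO, lowest in KO 1. The log2 fold change was 0.88 for Cnn1, 0.28 for Smtn, 0.13 for Des and -0.01 for Tagln, with a list median of 0.13. The fall of Acta2 was thus not shared by the list. Of 2 tested osteoblast markers none was called (edgeR; also 0 by unadjusted p under 0.05, by DESeq2 and by limma-voom); the summed level was 736, 1989 and 1865 CPM in WT and 2091, 720 and 745 CPM in KO, nearly all of it Spp1 (osteopontin), while Ibsp was at 0 in every library. The Spp1 sum thus had WT 1 low and KO 1 high, as Col3a1 did. Of 3 tested tenocyte markers Fmod fell, from a low level of at most 2.49 CPM. The list summed to 79.4 to 146 CPM in WT and 71.6 to 115 CPM in KO, mostly Scx, with Kera at 0. Scx and Mkx were not called (log2 fold change -0.41 and -0.19). Of 6 tested epithelial markers Krt8 and Krt18 rose (8.54 to 32.0 CPM summed in WT and 127 to 147 CPM in KO, with Krt5 and Krt14 at 0). Krt19, Cldn4, Epcam and Cdh1 were not called (log2 fold change 1.90, 3.13, 0.07 and -1.35). Epcam reached at most 1.18 CPM and Cdh1 at most 0.436 CPM. The sum was mostly Krt18 and Krt19, and Krt19 was nearly level in WT 1 (29.5 CPM) and KO 1 (29.1 CPM). Endothelial markers summed to at most 3.44 CPM (1 of 2 tested rose, Tek; Tie1 and Emcn at 0) and leukocyte markers to at most 4.94 CPM (0 of 2 tested called by edgeR, at an unadjusted p under 0.05, by DESeq2 or by limma-voom; Adgre1, Itgam, Tyrobp and Cd52 at 0). Among the called markers the calls of S100a4, Pdgfrb, Cd34, Acan, Fmod, Acta2 and Krt8 were lost in 2 or more of the 6 fits without 1 library (0.0524 to 0.171), and that of Acta2 in all 6. S100a4 was also not called with upper-quartile factors (0.0640), library sizes alone (0.0742) or a mean of at least 5 CPM (0.0570). Cd34 was not called with no filter (0.0531). For Tek the fits without 1 library are not given. The part of these markers in the collagen results was not tested.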

How the data were processed

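RNA from 3 WT and 3 KO libraries was prepared with a directional kit, per the labels' protocols. The authors deposited raw read counts per gene symbol, 1 file per library. Trim Galore 0.6.6, HISAT2 2.2.1 and the genome build hg38 are named in the submitters' processing notes, although the symbols are mouse symbols; which program counted the reads, with which annotation and whether by strand, is not given in the sources used here. Titles gave the groups; the genotype fields of KO 2 and KO 3 name PME-2 and PME-3.

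The counts were analysed in R 4.3.3 with edgeR 4.0.16 (filterByExpr, TMM factors, robust quasi-likelihood fit, Benjamini-Hochberg adjustment over 15223 genes, threshold 0.05), without a replicate term. CPM values use TMM factors, and SEs were derived from the F statistic (absolute log2 fold change over root F). Log2 CPM profiles used a prior count of 2. Chain ratios and the share of counts were compared by exact two-sided permutation tests (SciPy 1.17.1). Transcript lengths and positions are from GENCODE M21 (GRCm38), the longest coding transcript of each gene. Alternatives were DESeq2 1.42.0, limma-voom (limma 3.58.1), other scaling factors and filters, a test against a fold of 1.5, a replicate term and left-out libraries. The edgeR, DESeq2 and limma-voom fits were tried on simulated counts drawn independently for each library. The simulation did not set WT 1 and KO 1 apart from their groups, so it does not give error rates for these data. Named genes are the 10 members, Ppme1, from each list up to 4 called genes that averaged 1 CPM or more, by largest change, and the 3 most similar profiles (unnamed gene models left out); other genes were chosen after their values were seen. The members and lists were chosen with earlier results of these data known.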

Additional observations from a re-analysis of the deposited data

How the results depend on the processing

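The count of 1127 genes changed became 2406 with DESeq2, 396 against a fold of 1.5, 7408 without WT 1 and KO 1, and 332 to 1216 when 1 library was left out. The 4 fibrillar collagens called lower became 1 against a fold of 1.5, 7 without WT 1 and KO 1, and 1 to 6 when 1 library was left out. The 20 called genes of the 7 lists became 34 with DESeq2, 3 against a fold of 1.5, 73 without WT 1 and KO 1, and 4 to 25 when 1 library was left out. The low counts of these 3 ranges come from the fits without WT 2, WT 3, KO 2 or KO 3. The log2 fold change of Col2a1 lay between -0.212 and 0.488 in the fits without 1 library (-0.124 without WT 2, -0.0454 without WT 3), and that of Col5a2 was 0.0407 without WT 1 and KO 1. The log2 difference of Col3a1 to Col1a1 ranged from -0.373 (without WT 1) to 0.784 (without WT 2), and was -0.19 without KO 1 and -0.927 without both libraries numbered 1. The cause was not tested. Deviations from the group means of same-numbered libraries correlated at -0.51, -0.31 and -0.22. Because WT 1 and KO 1 stand apart in their groups, this cannot show whether same-numbered libraries were handled together. With the number as a replicate block, 8 genes, 0 fibrillar collagens and 0 genes of the 7 lists were called, with adjusted p = 0.0717 for Col11a1, and no library correlated best with its own number. Other scaling factors, no filter and a mean of at least 5 CPM left 4 members called lower. Depth limits Col24a1, with at most 7 counts in a library.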
